A study of Drosophila melanogaster with 3 samples.

Results

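The genes described here encode the proteins of the mitochondrial ribosome of Drosophila melanogaster. They are the protein-coding genes of the Ensembl BDGP6 annotation with a symbol that starts with mRpL (large subunit) or mRpS (small subunit) followed by a number. There are 73 of them, 47 for the large and 26 for the small subunit, among the 13945 protein-coding genes on the 6 chromosome arms that carry peaks. The experiment was a chromatin immunoprecipitation followed by sequencing (ChIP-seq) of CG4318, tagged with green fluorescent protein (GFP) at its C-terminus and stably expressed in a transgenic fly line. Chromatin came from whole prepupae of both sexes, and the tagged protein was pulled down with an antibody against GFP. The 3 samples are biological replicates of 1 group and all carry the tagged gene; a possible control experiment that the labels name was not analysed here. The labelled age of 48 days is far beyond the prepupal stage, and it was disregarded. It is not labelled which regulatory sequences drive the tagged gene, or in which cells it is made. Whole animals mix all cell types, so a weak peak from few cells and a weak peak from many cells cannot be told apart, and peaks give no expression marker with which to check the stage.

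The mitochondrial ribosome translates the few proteins that mitochondrial DNA encodes, which are core subunits of the respiratory chain and of ATP synthase. Its ribosomal RNAs come from mitochondrial DNA, but all its proteins are encoded in the nucleus, made in the cytosol and imported. The small subunit reads the messenger RNA, and the large subunit forms the peptide bond and holds the exit tunnel. Prepupae stand at the start of metamorphosis, when larval tissues are broken down and adult tissues are built.

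A peak is a region that the authors' peak caller found enriched, its summit is the position of highest signal within it, and TSS below means an annotated transcription start site. The windows of 100 bases centred on the summits at these promoters were rich in A and T, as 6 examples from the dm6 genome sequence show. They were chosen to cover both subunits, strong and weak peaks, and the lowest (mRpL20) and highest (mRpL2) GC content. Each is given 5′ to 3′ on the strand of its mRpL or mRpS gene, and capitals mark the longest uninterrupted run of A and T. In mRpS10 a second run, nearer the 3′ end, is as long as the one in capitals.
mRpS10 (chr3R:15229482-15229581, plus strand): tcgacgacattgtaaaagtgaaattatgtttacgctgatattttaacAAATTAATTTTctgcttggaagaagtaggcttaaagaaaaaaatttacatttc
mRpS23 (chr2L:13835401-13835500, minus strand): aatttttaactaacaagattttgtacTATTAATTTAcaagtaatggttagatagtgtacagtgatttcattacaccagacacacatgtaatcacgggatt
mRpL24 (chr2L:4945432-4945531, minus strand): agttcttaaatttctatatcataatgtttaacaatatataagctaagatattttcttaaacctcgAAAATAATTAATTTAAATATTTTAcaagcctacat
mRpL20 (chr3L:13018088-13018187, minus strand): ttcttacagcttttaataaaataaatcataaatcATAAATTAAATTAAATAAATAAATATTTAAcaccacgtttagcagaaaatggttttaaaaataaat
mRpS6 (chr3L:4364386-4364485, plus strand): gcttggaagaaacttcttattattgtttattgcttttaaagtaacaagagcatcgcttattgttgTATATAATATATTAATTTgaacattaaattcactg
mRpL2 (chr3L:11120461-11120560, plus strand): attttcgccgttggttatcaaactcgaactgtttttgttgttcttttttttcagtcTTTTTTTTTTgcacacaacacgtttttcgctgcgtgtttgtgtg

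The run in capitals was 30 bases in mRpL20, 24 in mRpL24, 18 in mRpS6, 11 in mRpS10, and 10 in both mRpS23 and mRpL2. GC content was 16.0% in the mRpL20 window and 19.0% in mRpL24. It was 25% in mRpS6, 27.0% in mRpS10, 29.0% in mRpS23 and 36% in mRpL2. None of the 6 windows overlapped an annotated exon.

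Most mitochondrial ribosomal protein genes had no reproducible CG4318 peak at their promoter. Of the 73 genes, 12 had the summit of a reproducible peak within 500 bp of a TSS, which is 16.4% (95% Wilson interval 9.66 to 26.6), against 9.40% of all protein-coding genes (1311 of 13945, interval 8.93 to 9.90). The background share lies just below the lower end of the interval of the 73 genes; this is a description and not a test. Large-subunit genes had 6 of 47 (12.8%, 5.98 to 25.2) and small-subunit genes had 6 of 26 (23.1%, 11.0 to 42.1). The share was 10.3 percentage points higher in the small subunit, with a 95% Newcombe interval from -6.98 to 30.5, so the subunits were not told apart. These intervals cover counting error over genes only, and genes that share a peak are not independent. Counted over the gene body and 2 kb on either side, 19 of 73 genes held a reproducible summit (26.0%, 17.3 to 37.1) against 21.8% of all genes. By subunit these were 11 large-subunit genes (23.4%) and 8 small-subunit genes (30.8%).

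**Figure D1:**
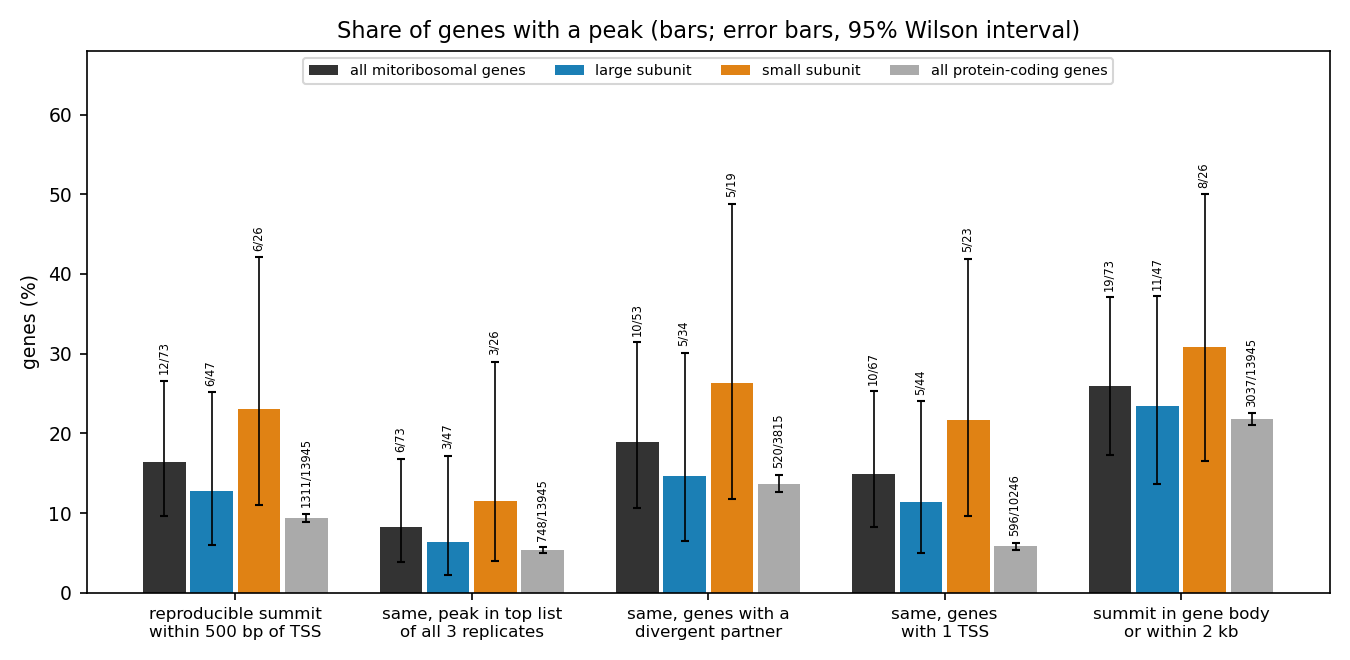
Percent of genes (y axis) with a reproducible peak by 5 criteria (x axis), for all mitochondrial ribosomal protein genes, the large and the small subunit, and all protein-coding genes; error bars are 95% Wilson intervals and the fractions give the counts. The first group of bars stands at 16.4% for the 73 genes, 12.8% for the large and 23.1% for the small subunit, and 9.40% for all genes, and the intervals of both subunits overlap in every group.

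The plot of shares also splits genes by the number of annotated TSSs, because a gene with more TSSs has more chances to lie near a summit. Of the 73 genes, 67 have 1 TSS (91.8%), against 73.5% of all protein-coding genes. Among genes with 1 TSS, 10 of 67 mitochondrial ribosomal protein genes had a promoter summit (14.9%, 8.31 to 25.3), against 596 of 10246 (5.82%, 5.38 to 6.29). Among genes with several TSSs the counts were 2 of 6 and 715 of 3699 (19.3%). By chromosome arm, 4 of 12 genes on 2L and 4 of 17 on 3L had a promoter summit, against 9.63% and 10.5% of all genes there. On 3R the count was 2 of 21 (9.52%), on 2R 1 of 12 (8.33%) and on X 1 of 11 (9.09%). The shares of all genes on these arms were close to that, at 8.74%, 7.61% and 11.0%.

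In the reproducible list of 5056 peaks the signal scores ran from 109 to 2606, with the median at 193. The signal score is the authors' measure of peak strength, on a scale that is not stated, and it is compared only within a list. There are 30000 candidates in the list of every replicate, as in the pooled one; a replicate's 5056 highest-scoring candidates are its top list. The reproducible peaks are the 5056 strongest pooled regions, so a peak could be in the list without being in every replicate. The authors label the pooled candidates as peaks and background, so a low-ranked candidate can be background rather than a weak peak. The sequencing depth is unknown, because the files hold no read counts.

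The strongest peak at a large-subunit gene was that of mRpL41 (FBgn0034001), which encodes a protein found only in mitochondrial ribosomes. Its summit, at position 15217755 of arm 2R, lay 138 bp upstream of the TSS and ranked 12 of 5056 with a signal score of 1788. In the lists of replicates 1, 2 and 3 the scores were 779, 551 and 461, at ranks 8, 18 and 14. All 3 replicates thus placed it near the top of their lists. No other protein-coding gene has a TSS within 500 bp of this summit; a long non-coding RNA gene, lncRNA:CR44463, starts 440 bp away.

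The peak at mRpL23 (FBgn0035335), the counterpart of a bacterial protein at the mouth of the exit tunnel, ranked 39 with a score of 1274. Its summit, at 3L position 2373595, lay 83 bp downstream of the nearest TSS, in an intron of mRpL23. Scores in replicates 1, 2 and 3 were 487, 439 and 353, at ranks 39, 46 and 36. It was the only one of the 12 summits downstream of the gene's own TSS; the other 11 lay upstream (91.7%, against 89.1% of all genes with a promoter summit).

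The peak at mRpL24 (FBgn0031651), whose bacterial counterpart starts the assembly of the large subunit, had its summit at 2L position 4945482, 121 bp upstream of the TSS. It had a score of 644 and ranked 302. The replicate scores were 269, 255 and 123, at ranks 285, 241 and 472, so this peak too was in all 3 top lists. The remaining large-subunit peaks were weaker and were missing from the list of replicate 3.

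At mRpL20 (FBgn0036335), a counterpart of a bacterial assembly protein of the large subunit, the summit was at 3L position 13018138, 271 bp upstream, with a score of 388 and rank 827. Replicates 1 and 2 gave scores of 159 and 156, and replicate 3 had no candidate there. A further reproducible summit, with a score of 275, lay 1966 bp downstream of the mRpL20 TSS and nearest to CG11267; that one was in all 3 top lists. At mRpL37 (FBgn0261380), which encodes another protein with no bacterial counterpart, the summit was at 3R position 10784289, 197 bp upstream, with a score of 218 and rank 2130. Its scores were 101 in replicate 1 and 84.2 in replicate 2, with no candidate in replicate 3. The peak at mRpL2 (FBgn0036135), whose bacterial counterpart lies near the peptidyl transferase centre, was close to the end of the reproducible list, with a score of 121 and rank 4484. Its summit, at 3L position 11120511, lay 336 bp upstream and in an intron of the neighbouring gene FoxK. Replicate 1 placed it at rank 8619 with a score of 30.8, replicate 2 at rank 2697 with 72.7, and replicate 3 listed no candidate.

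Among the small-subunit genes, mRpS10 (FBgn0038307), a counterpart of a bacterial protein of the head of the small subunit, had the strongest peak. Its summit, at 3R position 15229532, lay 133 bp upstream of the TSS, with a score of 1491 and rank 22. Replicates 1, 2 and 3 gave scores of 598, 508 and 385, at ranks 20, 26 and 30. The 3 lists therefore placed this peak alike.

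The peak at mRpS23 (FBgn0260407), which encodes a small-subunit protein found only in mitochondria, was nearly as strong in the reproducible list but differed between replicates. Its summit, at 2L position 13835451, lay 379 bp upstream, with a score of 1438 and rank 28. Replicates 1 and 2 gave scores of 568 and 471, at ranks 25 and 33, whereas replicate 3 had no candidate region there among its 30000.

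The other small-subunit peaks were of middle or low rank. At mRpS6 (FBgn0035534), a counterpart of a bacterial protein of the platform, the summit at 3L position 4364436 lay 114 bp upstream, with a score of 289 and rank 1412. Its replicate scores were 114, 97.9 and 78.3, all in the top lists. At mRpS7 (FBgn0032236), whose bacterial counterpart starts the assembly of the head, the summit at 2L position 10386474 lay 188 bp upstream, with a score of 217 and rank 2159. Replicates 1 and 2 gave 70.4 and 93.7, and replicate 3 had no candidate.

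The peak at mRpS25 (FBgn0030572), which encodes another protein found only in mitochondrial ribosomes, was in all 3 top lists, with a score of 200 and rank 2411. Its summit, at X position 14583405, lay 423 bp upstream, which made it the promoter summit closest to the 500 bp limit. Replicate scores were 71.4, 64.3 and 66.1, but the replicate summits spread over 146 bp, more than at any other of the 12 genes. The weakest peak was at mRpS18B (FBgn0032849), one of several mitochondrial counterparts of a single bacterial protein, with its summit at 2L position 20097388, 135 bp upstream. It had a score of 120 and rank 4543, and scores of 61.0, 32.7 and 24.8 in replicates 1, 2 and 3. Only replicate 1 held it in its top list, at rank 3915, against 7274 and 6048 in the others.

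**Figure D2:**
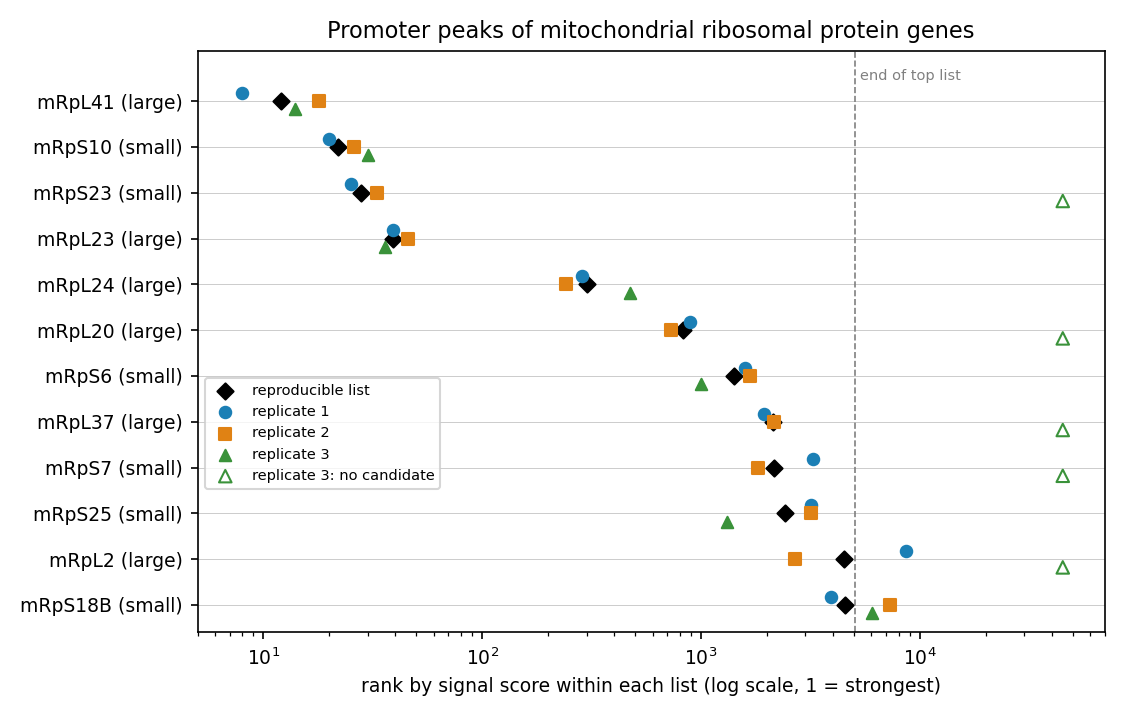
Rank by signal score (x axis, log scale, 1 is the strongest) of the promoter peak of each of the 12 genes (y axis), in the reproducible list and in each replicate's list; open triangles at the right mark genes with no candidate region in replicate 3, and the dashed line marks the end of the top list at rank 5056. Filled symbols of a gene lie close together at mRpL41, mRpS10 and mRpL23, and 5 genes have an open triangle.

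As the plot of ranks shows, replicate 3 was where the 12 peaks differed. Replicates 1 and 2 listed all 12, and each had 11 of them in its top list. Replicate 3 listed 7 of 12 (58.3%, 32.0 to 80.7) and had 6 in its top list (50%), against 67.8% and 62.6% for the strongest promoter peaks of all bound genes. The 6 genes with a peak in all 3 top lists were mRpL41, mRpL23, mRpL24, mRpS10, mRpS6 and mRpS25. They made up 8.22% of the 73 genes (3.82 to 16.8), against 5.36% of all protein-coding genes. Each subunit contributed 3 of them. Of the genes with a promoter summit, 6 of 12 (50%, 25.4 to 74.6) had a peak in all 3 top lists, against 748 of 1311 (57.1%). The replicate summits of a gene lay close together, with a median spread of 16.5 bp, from 5 bp at mRpL2 to 82.0 bp at mRpL37 and 146 bp at mRpS25.

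The 12 signal scores fell into a few strong peaks and a broad tail. The median was 339 (range 120 to 1788), against 286 for the strongest promoter peak of all 1311 bound genes. It was 516 for the 6 large-subunit genes and 253 for the 6 small-subunit genes, with ranges of 121 to 1788 and 120 to 1491 that overlap almost whole. Peaks within the first 100 ranks were found at 4 of the 12 genes, which were mRpL41, mRpS10, mRpS23 and mRpL23 (33.3%, 13.8 to 60.9), against 91 of 1311 bound genes (6.94%, 5.69 to 8.45). Within the first 1000 ranks the counts were 6 of 12 (50%) and 503 of 1311 (38.4%). The median distance to the gene's own TSS was 163 bp, against 212 bp for all bound genes.

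Nearly all of these summits also lay at the start of another gene. Mitochondrial ribosomal protein genes are often arranged head to head with a neighbour: 53 of 73 (72.6%, 61.4 to 81.5) have a TSS of a protein-coding gene on the opposite strand within 500 bp upstream, against 3815 of 13945 genes (27.4%, 26.6 to 28.1). The shares were alike in the large (72.3%) and the small subunit (73.1%), with a difference of 0.736 percentage points and a Newcombe interval from -21.2 to 20.1. Of the 12 genes with a promoter summit, 11 shared it with another protein-coding gene (91.7%, 64.6 to 98.5), against 560 of 1311 bound genes (42.7%, 40.1 to 45.4). The gene's own TSS was the nearest in 5 of 12 cases (41.7%, 19.3 to 68), against 1065 of 1311 (81.2%, 79.0 to 83.3). A shared summit cannot be assigned to either gene from these data.

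All 11 sharing neighbours are transcribed from the opposite strand, and 10 of the 11 summits lay between the nearest TSSs of the pair. In 7 cases the summit was nearer to the neighbour. Among these were Art3, a protein arginine methyltransferase gene (124 bp, against 133 bp to mRpS10), CenG1A, which encodes a GTPase-activating protein (113 bp, against 379 bp to mRpS23), and betaggt-I, for the beta subunit of a geranylgeranyl transferase (97 bp, against 121 bp to mRpL24). They also included Icmt, for the methyltransferase of prenylated proteins (128 bp, against 271 bp to mRpL20), nmdyn-D6, of the nucleoside diphosphate kinase family (272 bp, against 423 bp to mRpS25), and FoxK, a forkhead transcription factor gene (100 bp, against 336 bp to mRpL2). In 4 cases the summit was nearer to the mitochondrial ribosomal protein gene. The neighbours there were CG9004 (133 bp, against 83 bp to mRpL23), Cip4, for a membrane-bending F-BAR protein (334 bp, against 114 bp to mRpS6), the mitotic kinase gene Cdk1 (212 bp, against 188 bp to mRpS7) and Kua (193 bp, against 135 bp to mRpS18B). The summit outside its pair was that of mRpL23. The FoxK TSS closest to its summit is an internal one.

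**Figure D3:**
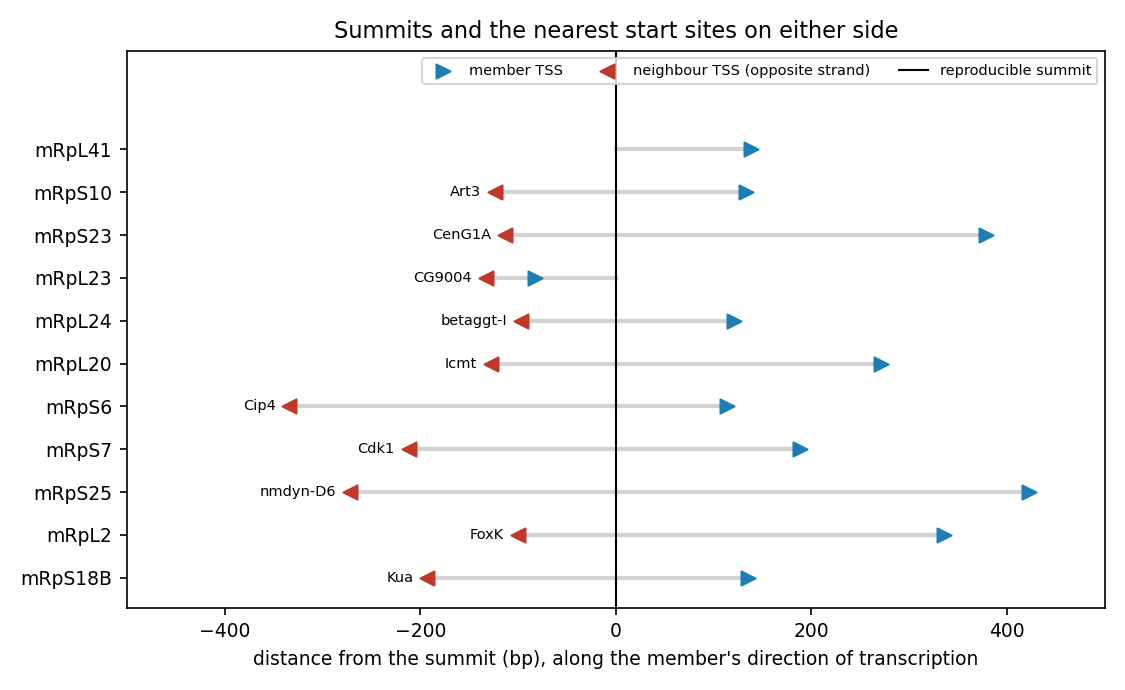
Distance from the reproducible summit (x axis, bp, 0 is the summit) to the nearest TSS of 11 of the 12 genes (blue) and of the protein-coding neighbour that shares the summit (red, named), with every gene drawn in the transcription direction of the mRpL or mRpS gene. In the 10 pairs drawn the summit lies between both TSSs, except at mRpL23, where it lies outside the pair, and mRpL41 has no protein-coding neighbour within 500 bp.

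Most genes with a head-to-head neighbour had no promoter summit. Of the 53 genes with such a neighbour, 10 had a promoter summit (18.9%, 10.6 to 31.4), against 520 of 3815 such genes in the whole annotation (13.6%, 12.6 to 14.8). Of the 20 without one, 2 had a promoter summit (10%, 2.79 to 30.1), against 791 of 10130 (7.81%). These 2 were mRpL41 and mRpS25, whose neighbour nmdyn-D6 starts 695 bp away. Where the gap between the paired TSSs was 200 to 500 bp, 8 of 31 genes had a promoter summit (25.8%, 13.7 to 43.2), against 359 of 2309 (15.5%, 14.1 to 17.1). Where it was under 200 bp, 2 of 22 had one (9.09%, 2.53 to 27.8), against 161 of 1506 (10.7%). These were mRpL2 (gap of 64 bp) and mRpL23 (24 bp), and neither summit lay in its gap. The gap is the shortest one between TSSs of the pair, which need not be the TSSs nearest to the summit. In the small subunit these counts were 5 of 13 at the wider gap and 0 of 6 at the narrower one, and in the large subunit 3 of 18 and 2 of 16. The intervals of wide and narrow gaps overlap among the 73 genes.

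A further 7 genes had a reproducible summit only in the gene body or within 2 kb, and all of these summits were nearest to the TSS of another gene. The strongest was near mRpL13, whose score of 562 ranked 425 and which was in all 3 top lists, but it lay 1446 bp downstream of the mRpL13 TSS in an intron of CG10602. For mRpL32, mRpL33 and mRpL34 the summits lay in introns of the upstream neighbours qless, norpA and Dg, at 1304, 1946 and 1139 bp from the TSS and with scores of 248, 298 and 272. A further summit for mRpL34, with a score of 128, also lay in an intron of Dg. Dg encodes dystroglycan, an adhesion receptor, and norpA the phospholipase C of phototransduction.

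For mRpL49 there were 3 such summits, with scores of 181, 151 and 131, the closest 887 bp from the TSS and nearest to CG4404. This was the summit just outside the 500 bp limit. For mRpS24 the summit had a score of 347 and lay 1853 bp from its TSS but 35 bp from that of TBC1d7. At mRpS9 both summits, with a score of 136 each, lay 7772 and 9851 bp downstream of the TSS in introns of both mRpS9 and wtrw, a channel gene. Without the 2 kb margin, 2 genes held a summit in their own body, which were mRpL23 and mRpS9. The share of all protein-coding genes without the margin is not given here. None of the counts over gene bodies takes gene length into account.

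Of the 61 genes without a reproducible promoter summit, 5 had a lower-scoring candidate in the pooled list, which also holds background regions. With those, 17 of 73 genes had a pooled candidate summit at a promoter (23.3%, 15.1 to 34.2), against 22.5% of all genes, so on this wider list the share was close to the background. The strongest was at mRpS5, with a score of 93.2 and rank 5907, at ranks 9301, 13037 and 3086 in replicates 1, 2 and 3. Next came mRpL21 with a score of 88.9 and rank 6231, and mRpL4 with 72.4 and rank 7692. The candidate at mRpL49 had a score of 57.5 and rank 10325, and that at mRpL32 a score of 36.7 and rank 22828. Among genes without a reproducible promoter summit, these 5 of 61 are 8.20% (3.55 to 17.8), against 14.5% of all such genes.

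The remaining 56 genes had no pooled candidate at a promoter. In the large subunit, 24 of them had no candidate in any replicate either: mRpL1, mRpL3, mRpL9, mRpL10, mRpL13, mRpL15, mRpL16, mRpL17, mRpL27, mRpL28, mRpL30, mRpL33, mRpL38, mRpL40, mRpL42, mRpL43, mRpL45, mRpL46, mRpL48, mRpL50, mRpL51, mRpL52, mRpL54 and mRpL55. A candidate in 1 replicate was listed for 11 others, mRpL11, mRpL12, mRpL14, mRpL18, mRpL22, mRpL35, mRpL36, mRpL39, mRpL44, mRpL47 and mRpL53, and in 2 replicates for mRpL19 and mRpL34. In the small subunit, 11 had none in any replicate: mRpS9, mRpS14, mRpS17, mRpS18A, mRpS18C, mRpS28, mRpS29, mRpS30, mRpS33, mRpS34 and mRpS35. A candidate in 1 replicate was listed for mRpS11, mRpS16, mRpS22 and mRpS24, and in 2 replicates for mRpS2, mRpS21, mRpS26 and mRpS31. A list of 30000 regions has an end, so the lack of a candidate shows only that no region was listed there. The same counts over all protein-coding genes are not given here, so these counts do not set the 56 genes apart.

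In the single replicates the share of genes with a promoter summit in the top list was 21.9% in replicate 1 (16 of 73) and 23.3% in replicate 2 (17 of 73). The same shares of all protein-coding genes were 12.5% and 12.8%. In replicate 3 it was 9.59% (7 of 73, 4.72 to 18.5), against 6.88%. With any of the 30000 candidates counted, the shares were 42.5%, 38.4% and 11.0% in replicates 1, 2 and 3, against 31.8%, 30.9% and 18.7% of all genes. With any candidate counted, replicate 3 stood below its background, at 8 of 73 genes, whereas replicates 1 and 2 stood above theirs. The interval of replicate 3 (5.66 to 20.2) includes the 18.7%, and that of replicate 2 (28.1 to 49.8) includes its 30.9%. That of replicate 1 (31.8 to 53.9) starts at about its 31.8%. By top list, the share of replicate 3 was above the background.

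GC content varied between the 12 summits. In the 100 bp at the summit it was 25.3% ± 5.74 (SD, n = 12 summits, range 16.0 to 36), against 30.6% ± 7.88 for all 1204 promoter summits. At 10 of the 12 genes it was below the mean of all promoter summits, and at mRpS25 (33.0%) and mRpL2 (36%) it was above. At mRpS25 the window centred 140 bp to the right, as the genome is numbered, had 21.0%. At mRpL2 the one centred 40 bp to the right had 28.0%, so at both the summit was not the lowest point. Nor was it at mRpL41, mRpL37, mRpS6, mRpS7, mRpS10, mRpS18B and mRpS23, where some other window drawn in the GC plot was lower. At mRpS23, for example, a window to the left had 19.0%, against 29.0% at the summit. At 200 bp to the left and right of the summit the mean of the 12 was higher, at 37.4% ± 9.99 and 34.8% ± 6.82, against 42.2% and 43.2% for all promoter summits. The promoters of the 73 genes, taken as 250 bp before to 50 bp after the TSS, had 35.8% ± 6.16, against 39.3% ± 7.80 for all genes. It was 34.2% at the 12 genes with a promoter summit and 36.2% at the other 61.

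**Figure D4:**
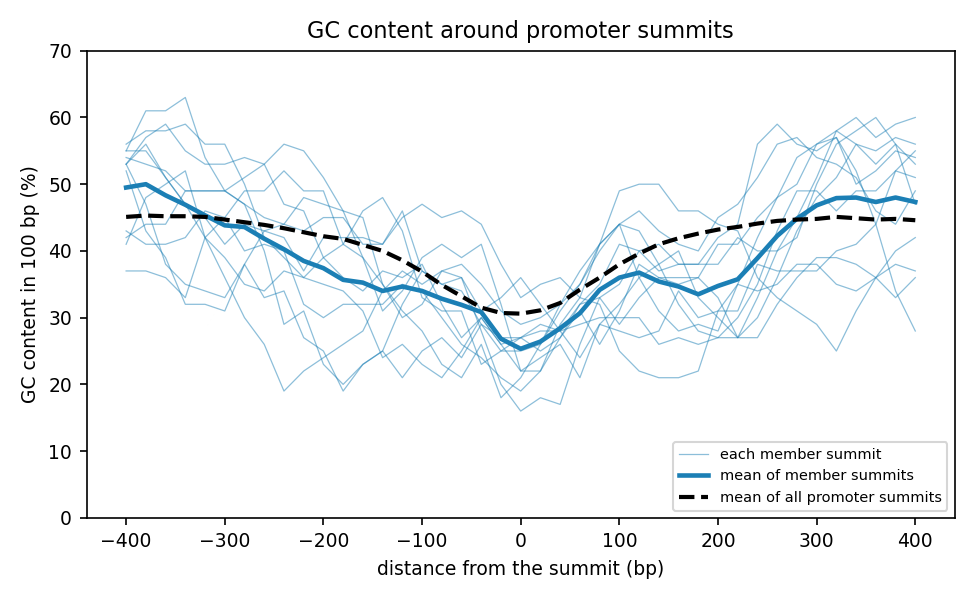
GC content in 100 bp windows (y axis, percent) against distance from the summit (x axis, bp) for each of the 12 promoter summits (thin lines), their mean (thick line) and the mean of all 1204 promoter summits (dashed). Both means are lowest at the summit, at 25.3% and 30.6%. The mean of the 12 lies below the dashed line at 200 bp on either side and above it at 400 bp on either side.

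Short motifs were counted on both strands. The DNA replication-related element TATCGATA, which the factor DREF binds at many housekeeping promoters, is known from several mitochondrial genes. It was in the 300 bp promoters of 15 of the 73 genes (20.5%, 12.9 to 31.2), against 8.94% of all promoters. It was in 11 of 47 large-subunit and 4 of 26 small-subunit promoters. Its core ATCGAT, which lies within it, was in 27 of 73 (37.0%), against 22.7%. Genes with and without a promoter summit held TATCGATA in 4 of 12 and 11 of 61 cases, with intervals of 13.8 to 60.9% and 10.4 to 29.5% that overlap.

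The summits themselves were searched in shorter windows, of 100 bp instead of 300 bp, so their shares are not comparable with those of promoters. None of the 12 windows of 100 bp held TATCGATA or ATCGAT (0 of 12, interval up to 24.2%), against 0.581% and 3.24% of all promoter summits, a background at which 12 windows are too few to show a lack. The nearest TATCGATA was 134 bp from the summit at mRpS18B, 174 bp at mRpS23, 256 bp at mRpS25 and 264 bp at mRpL20, and the other 8 had none within 500 bp. The TATA box sequence TATAAA was in 3 of 12 windows (25%), at mRpL23, mRpL37 and mRpS18B, against 25.5% of all promoter summits.

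Among the other motifs, the sequence GAGAG, to which GAGA factor binds, was in 16.4% of the 73 promoters (9.66 to 26.6), against 30.2% of all. It was in 0 of the 12 summit windows (interval up to 24.2%), against 7.23%, and 12 windows are too few to show a lack. Core promoter motif 7 was in 28.8% of the 73 promoters against 18.7%, and core promoter motif 1 in 8.22% against 4.36%. Core promoter motif 6 was in 1 of the 12 summit windows, that of mRpL41, and in 1 of all 1204 promoter summits. The E-box CACGTG was in 5 of 73 promoters (6.85% against 4.26%), GCGCATGC in 1 (1.37% against 1.06%) and CAGGTAG, the Zelda motif, in 0 (against 1.72%); none of these was in a summit window. A match to letters is not evidence of binding.

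Other genes of mitochondrial translation and respiration had few promoter summits. Of 15 mitochondrial tRNA synthetase genes 2 had one, ArgRS-m with a score of 121 and ProRS-m with 112. Of 40 genes of complex I, the first proton pump of the respiratory chain, 2 had one, ND-ASHI with a score of 609 and ND-MWFE with 529 (5%, 1.38 to 16.5). Complex IV had 1 of 16, COX7AL2 with a score of 160 and its summit 493 bp from the TSS. The summits at ProRS-m and ND-MWFE were nearest to the TSS of another gene. The counts were 0 of 4 for complex II, 0 of 12 for complex III, 0 of 15 for ATP synthase, 0 of 9 for mitochondrial translation factors and assembly, and 0 of 10 for mitochondrial DNA maintenance and transcription. The small-subunit genes tko and bonsai, which are named outside the mRp scheme, had none.

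None of the few promoter peaks of these other mitochondrial genes was in all 3 top lists, against 748 of 1311 bound genes (57.1%). So few peaks cannot set these genes apart. Cytosolic ribosomal protein genes had 6 of 93 (6.45%, 2.99 to 13.4), with RpS20 at 372, RpL8 at 252 and RpL23 at 246. Of the 6 peaks, 2 were in all 3 top lists, and the RpL23 summit was nearest to the TSS of another gene. All of these shares can be read beside the 9.40% of all protein-coding genes, and the intervals of the tRNA synthetase, complex I, complex IV and cytosolic lists include it. The interval of each list without a promoter summit reaches at least to 20.4%.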

How the data were processed

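The authors' deposited dm6 peak lists were read for 3 replicates, the pooled sample and the reproducible set; the dm3 lists were not used here. Which aligner and peak caller made them is not given in the sources used here. Peak strength is a signal score that the authors deposited, on an unstated scale, used only within a list; it cannot be converted to reads, and depth is unknown. Summits are 1-based dm6 positions. Gene models are those of Ensembl release 115. A promoter summit lies within 500 bp of a TSS; a replicate supports a peak when a region of its 5056 strongest overlaps it by at least 1 bp. Shares have 95% Wilson intervals, and no test was run, since there is 1 group. Whether the replicates differ in animals or only in handling is not given beyond the label of biological replicate.

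The members and lists were chosen with earlier results of these data known. Named genes are every one with a summit, the 5 strongest pooled candidates without a reproducible promoter summit, up to 3 per related list, and neighbours that share a peak. Other genes were named by a single count after their values were seen. A neighbour that shares a summit is not reported here. Listed symbols mEFG2, Noa1 and Twinkle matched no gene, and DAP3 is mRpS29. Motifs were matched in the dm6 sequence (RefSeq) on both strands. Alternatives covered windows, margins, overlap rules, list lengths and omission of each replicate. The counting steps were tested on simulated data. The tools were Python 3.11.15 with numpy 2.4.6, matplotlib 3.10.9, pandas 2.3.3 and scipy 1.17.1.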

Additional observations from a re-analysis of the deposited data

How the results depend on the processing

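With only peaks in the top list of all 3 replicates, promoter summits fell from 12 to 6 genes (3 large, 3 small), and gene body or 2 kb summits from 19 to 11. In that setting, added after the data were seen for this count, genes whose own TSS was nearest to the summit went from 5 to 3. The top list of replicate 3 alone gave 7 genes, 3 of them large-subunit. Leaving out 1 replicate at a time gave 6 to 10 genes with a promoter summit, 3 to 5 in each subunit. It gave 11 to 17 genes with a body or 2 kb summit. Genes with a peak in all remaining top lists were also 6 to 10, the same count for each replicate left out. Both promoter counts thus reflect 1 filter, support in the remaining top lists, because peaks were not called again without a replicate. The count of 10 was reached without replicate 3. Without the 2 kb margin 2 genes held a summit in the gene body, and with a 250 bp window 6 genes shared or faced a summit, instead of 11. The share of all genes is not given here for either setting. Of 66 alternative values, 18 moved by over 1.5 times (counts) or by over 1 SD (medians), and 48 did not. The 48 include 8 to 17 genes against the reported 12 with a promoter summit, and median scores of 136, 127 and 123 in the lists of replicates 1, 2 and 3, each on its own list's scale. The cause of the moves was not tested, except that stricter settings keep fewer peaks. A 250 bp TSS window gave 8 genes (11.0% against 6.05% of all genes) and a 1000 bp window 13 (17.8% against 12.1%). No paired analysis was possible because there is 1 group. Unknown depth limits every statement about missing peaks.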

Other observations

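Some mitochondrial ribosomal protein genes had a promoter summit in the top list of both replicate 1 and replicate 2, without any candidate in the pooled list. At mRpS2, the counterpart of a bacterial small-subunit protein, the scores were 146 (rank 1052) in replicate 1 and 120 (rank 1198) in replicate 2. At mRpS26 they were 98.6 (rank 2006) and 75.1 (rank 2564). No pooled region lay within 1 kb of the TSS of either gene. At mRpL34 they were 76.1 (rank 2937) and 62.5 (rank 3303). None of the 3 genes had a candidate at the promoter in replicate 3. Of 12 mitochondrial ribosomal protein genes with a summit in both top lists, these 3 (25%) had no pooled candidate, against 308 of 1435 of all protein-coding genes (21.5%). Over the whole list, 310 of 4020 regions in both top lists (7.71%) overlapped no pooled candidate, and 69.4% of those 310 were at promoters, against 30.4% of the 4020. Replicate 3 had no candidate at 283 of the 310. How many of all 4020 regions lacked one in replicate 3 is not given here, and a link to the pooled list was not tested.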
